A study of Homo sapiens with 4 samples.

Results

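The miRNAs described here are the mature products of 2 paralogous miRNA clusters, hsa-miR-23a, hsa-miR-27a and hsa-miR-24 from one locus and hsa-miR-23b, hsa-miR-27b and hsa-miR-24 from the other, written without the prefix from here on. They were taken by name, 5 of the 377 human miRNA assays on a TaqMan array card, and the rule used no measured value, although it was written with earlier results of these data known. The card was run on RPMI8226, an established human multiple myeloma line, and on the exosome fraction of its medium (small vesicles that cells release, here precipitated from medium with a polymer). Each was sampled after 24 h in normoxia (20% O2) or hypoxia (1% O2), which gave 4 groups of 1 sample each: normoxic cells, hypoxic cells, normoxic exosome fraction and hypoxic exosome fraction. The labels name no further treatment. According to their protocols, pre-amplification before PCR was applied to the exosome products alone, and the hypoxic cultures used degassed medium.

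Each cluster is transcribed as 1 primary RNA from which 3 hairpins are cut, so its miRNAs can be made together, although the final levels of the mature strands also depend on processing and decay. miR-23 is known for repressing glutaminase, which feeds glutamine into metabolism, miR-27 for repressing regulators of fat cell formation and of blood vessel sprouting, and miR-24 for repressing cell cycle and DNA repair genes. Members of both clusters were among the miRNAs first reported to rise in cancer cells at low oxygen, beside miR-210, the best known target of the hypoxia-inducible factor.

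The mature sequences are shown because the paralogs differ by so little that the separate assays have to tell apart nearly identical RNAs. They are given from RefSeq (GRCh38.p14), 5′ to 3′, with the seed, bases 2 to 8, in capitals. The card's names without an arm are read as the 3p strands, as was usual for these names, and all 5 matched.
miR-23a: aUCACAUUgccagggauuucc
miR-23b: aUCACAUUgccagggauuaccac
miR-27a: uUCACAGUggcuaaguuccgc
miR-27b: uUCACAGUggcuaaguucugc
miR-24: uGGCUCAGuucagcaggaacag
miR-23a and miR-23b share a seed and differ over their common 21 bases by 1 substitution, U19A (the miR-23a base, its position counted from 1 at the 5′ end, then the miR-23b base); miR-23b has 2 more bases at its 3′ end. miR-27a and miR-27b share another seed and differ by C19U. The sequences against which the assays were designed are not given in the sources used here. No other assay among the 326 on the card that matched a RefSeq mature name carried any of these 3 seeds. The seed of miR-128, an assay named in advance, repeats bases 3 to 9 of miR-27a, and other assays were not searched for such shifted matches.
miR-128: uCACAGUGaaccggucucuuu

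miR-24 is made from both loci, and its 2 hairpins are shown with the mature strand in capitals, because that strand is identical in both and its Ct cannot be assigned to either cluster.
MIR24-2: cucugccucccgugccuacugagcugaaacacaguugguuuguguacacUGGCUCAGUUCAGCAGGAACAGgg
MIR24-1: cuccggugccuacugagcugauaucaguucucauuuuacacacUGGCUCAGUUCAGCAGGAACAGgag
The cluster with MIR23A (chr19:13836587-13836659), MIR27A (chr19:13836440-13836517) and MIR24-2 (chr19:13836287-13836359) lies on the minus strand of GRCh38.p14, within 373 bases, inside the span of the long non-coding RNA gene MIR23AHG. MIR23B (chr9:95085208-95085304), MIR27B (chr9:95085445-95085541) and MIR24-1 (chr9:95086021-95086088) lie on the plus strand within 881 bases, inside the span of the protein-coding gene AOPEP. The gene table used gives spans only, so exon or intron was not read. These positions describe the reference genes, and the assays themselves measured RNA without coordinates.

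The unit is the threshold cycle (Ct), the cycle of PCR whose fluorescence first exceeds a set level, so a lower Ct means more template. The highest Ct in the table, 35, was shared by many wells and was read as not detected. A Ct under it was recorded for 162 and 155 assays in normoxic and hypoxic cells and for 221 and 219 in the matching exosome samples. The 4 wells of U6, a small nuclear RNA, gave an SD of 0.15 and 0.12 cycles in the cell samples. These are the only repeat wells, and from them a difference between the 2 cell cards has a well-to-well SD of 0.19 cycles. Their mean Ct was 18.82 and 18.81, and the scatter of wells at the members' higher Ct in cells was not measured. With 1 sample per group and 1 well per miRNA, no difference below has a replicate error or a p-value. As a check of the line, the 6 blood cell miRNAs listed were detected in both cell samples, led by miR-142-3p (Ct 24.95 and 24.97) and miR-146a (25.95 and 25.71), while neither cell sample had a Ct under 35 for miR-122 of liver, miR-1 of muscle, miR-124 of the nervous system or miR-451 of red cells. The muscle miRNA miR-133a was detected in hypoxic cells, at Ct 32.96, and not in normoxic ones. The check covers the cells and the listed miRNAs alone, so it does not show that miRNAs of other tissues were absent. miR-9 and miR-200b, for instance, were not on the list and were detected in both cell samples. In the normoxic and hypoxic exosome samples miR-133a (27.94 and 28.07), miR-124 (30.01 and 29.51) and miR-1 (33.09 and 32.14) were detected. miR-451 was detected in the normoxic one only (33.19), and miR-122 in neither.

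The members ranged from among the most abundant signals on the card to one that was not detected in the exosome fraction. The Ct of miR-24 was 23.99 and 23.90 in normoxic and hypoxic cells, and 15.97 and 16.26 in the matching exosome samples. It ranked 8th from the lowest Ct of 162 detected assays in normoxic cells and 5th in each of the other samples.
miR-27a had a Ct of 29.94 and 29.77 in normoxic and hypoxic cells, and 21.94 and 21.86 in the matching exosome samples. Its rank from the lowest Ct was 58 and 53 in cells and 35 and 30 in the exosome fraction. miR-23a lay close behind it, at 30.25 and 30.97 in cells and 22.94 and 22.99 in the exosome fraction. Its rank from the lowest Ct was 63 of 162 in normoxic and 73 of 155 in hypoxic cells.
The paralogs from the chromosome 9 locus had higher Ct values. miR-27b stood at 31.67 and 31.97 in cells and at 23.87 and 23.98 in the exosome fraction, near the middle of the detected assays in cells. miR-23b stood at 33.01 in normoxic and 32.11 in hypoxic cells and was at the ceiling in both exosome samples.

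**Figure D1:**
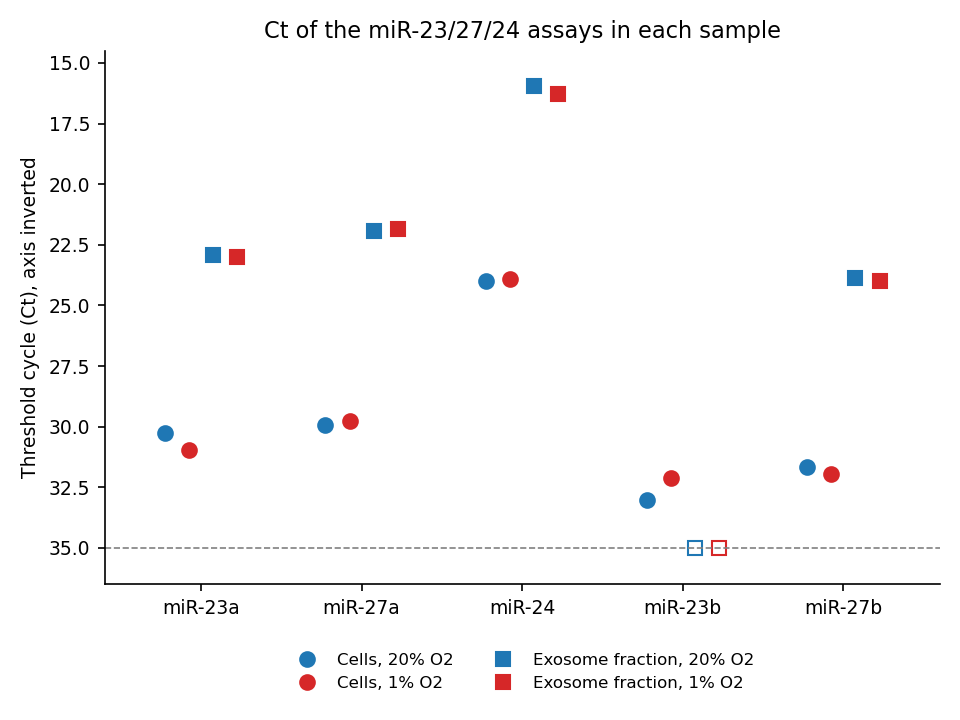
Threshold cycle (Ct, inverted axis) of the 5 assays in the 4 samples, 1 well each; circles are cells, squares the exosome fraction, blue 20% O2 and red 1% O2, and open symbols on the dashed line at 35 were not detected. miR-24 has the lowest Ct in every sample, and miR-23b is the only one of the 5 at the ceiling, in both exosome samples.

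From the lowest Ct, the order was miR-24, miR-27a, miR-23a, miR-27b and miR-23b in all 4 samples. Assays differ in efficiency, so this is an order of signals rather than of copies. The smallest step was that from miR-27b to miR-23b in hypoxic cells, 0.14 cycles, which is below the SD of a difference between 2 U6 wells of that sample (0.17). In normoxic cells the same step was 1.34 cycles. A Ct of a whole sample does not tell apart fewer cells or vesicles from less of a miRNA in each.

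The first comparison asked whether the clusters' miRNAs differed between hypoxic and normoxic cells, normalized to U6. None of the 5 reached 2-fold, where 13.6% of the 147 assays detected in both cell samples did. The miR-23 paralogs nevertheless lay at opposite ends of the members: miR-23b was 1.86-fold higher and miR-23a 1.66-fold lower in hypoxia, log2 changes of 0.90 and -0.73. The remaining members lay between them, at 0.17 for miR-27a, 0.08 for miR-24 and -0.30 for miR-27b. The members' median log2 change was 0.08, beside 0.03 over all 147 assays.

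miR-23a lay among the lower changes on the card, rank 11 from the lowest of 147, and rank 5 of the 94 assays with a Ct under 32 in both cell samples. miR-23b ranked 15th from the highest of 147, and its Ct above 32 in both samples keeps it out of the stricter set. Changes of at least that size in either direction were not rare, since 23 assays exceeded the size of miR-23b's and 32 that of miR-23a's. At 1.5-fold these 2 were the members past the threshold, beside 27.9% of all assays.
miR-27a and miR-24 sat in the middle of the distribution, with 59.2% and 54.4% of assays showing a lower change. With RNU44 and RNU48, small nucleolar RNAs, as normalizers in place of U6, miR-24 changed sign to -0.07 and miR-27a stood at 0.02. miR-27b, with 24.5% of assays lower, was at -0.45 under that normalizer.

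Within each locus the signs differed in cells with U6 as normalizer. In the chromosome 19 cluster miR-23a and miR-27a had log2 changes of opposite sign. The 0.17 of miR-27a was, however, below the U6 well-to-well SD of 0.19, and it was 0.02 with RNU44 and RNU48. In the chromosome 9 cluster miR-23b and miR-27b also differed in sign, with the signs the other way round. Within a sample a normalizer cancels, so these gaps were also read directly from Ct. miR-23a trailed miR-27a by 0.31 cycles in normoxic cells and by 1.20 in hypoxic cells, a shift of 0.90 cycles. For the miR-23b and miR-27b pair the gap went from 1.34 to 0.14 cycles, a shift of -1.20. miR-27a kept its distance from miR-24, at 5.96 and 5.87 cycles, while miR-27b was 7.68 and 8.07 cycles behind miR-24.

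Between paralogs, the gap of miR-23 shifted more than that of miR-27. miR-23b trailed miR-23a by 2.76 cycles in normoxic cells and by 1.13 in hypoxic cells, a shift of -1.63 cycles or 3.09-fold in their ratio at full PCR efficiency. The corresponding gap of miR-27b to miR-27a was 1.73 and 2.20 cycles, a shift of 0.47. As a frame for these, the card holds 49 pairs of paralogs that share a number and arm and differ by the letters a, b or c, some of which share a miRNA. Of the 23 pairs with both miRNAs detected in both cell samples, 3 shifted by at least 1 cycle (13%), with a median absolute shift of 0.44 cycles.
The miR-23 pair had the largest shift of the 23, followed by miR-301b with miR-301a (-1.41) and miR-19b with miR-19a (-1.12). The smallest were miR-26b with miR-26a (0.02), miR-30c with miR-30b (0.08) and miR-200c with miR-200a (0.08). The miR-27 pair ranked 10th by size. miR-23b, at the higher Ct of its pair, rests on a well above 32 in each sample, and the error of such a well was not measured.

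**Figure D2:**
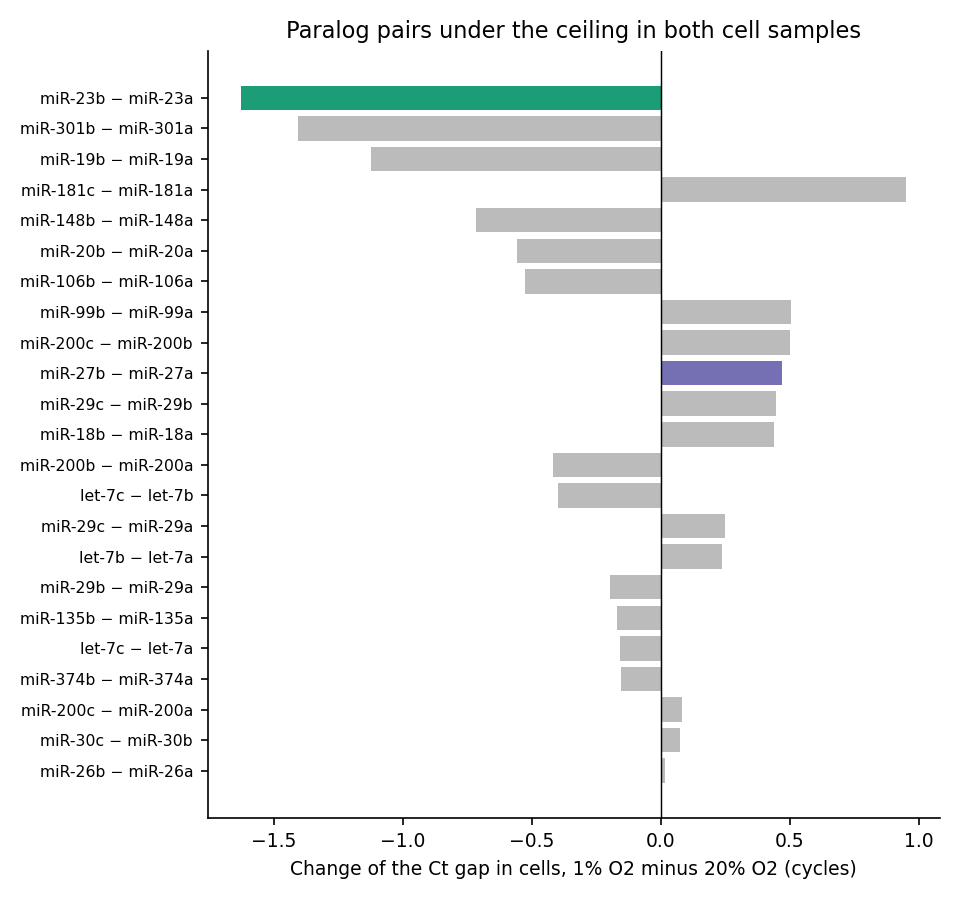
Change of the Ct gap between paralogs in cells, 1% O2 minus 20% O2 (cycles), for the 23 pairs on the card detected in both cell samples, ordered by size; a negative bar means that the first-named miRNA's Ct was lower relative to the second's in hypoxia. The miR-23 pair (green) has the longest bar at -1.63 cycles, and the miR-27 pair (purple) stands at 0.47.

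The other miRNAs of the families most often reported in hypoxia gave a frame for these values in cells. Of 9 listed, 7 were on the card and 6 were detected in both cell samples; only miR-210 passed 2-fold, with a log2 change of 3.55. miR-26a (0.23), miR-26b (0.21), miR-181a (0.23) and miR-103 (0.07) lay within the range of the 5 members, and miR-181c (-0.72) lay next to miR-23a. The list's median was 0.22. miR-107 was detected in hypoxic cells only, at Ct 33.10.

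The second comparison asked the same of the exosome fraction, normalized to the spike-in ath-miR159, a plant miRNA added at lysis. The spike-in has no repeat wells, and all 4 U6 wells were at the ceiling in both exosome samples. No well-to-well SD was therefore available there. The 4 detected members differed by at most 0.25 on the log2 scale between the oxygen conditions. The log2 changes were 0.14 for miR-27a, 0.001 for miR-23a, -0.06 for miR-27b and -0.25 for miR-24, and none reached 2-fold, beside 7.39% of 203 assays. Their median was -0.03, and that of all 203 was -0.07.
miR-23a had nearly the same Ct as the spike-in itself, which stood at 22.94 and 22.99. Normalizing to the sample medians instead adds 0.20 to every value of the exosome fraction, which turned miR-27b to 0.14 and left miR-24 at -0.05. miR-24 had the largest difference of the 4 with the spike-in, and 49.8% of the 203 assays differed by more. miR-27a trailed miR-24 by 5.98 cycles in normoxia and 5.60 in hypoxia, so that gap narrowed by 0.38 cycles, whereas the gap of miR-27b to miR-27a was 1.92 and 2.12 cycles. The authors' deposited table lists a ratio of 1.0376 for miR-23b in the exosome fraction, which comes from wells at the ceiling in both samples and is no measurement.

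Of the hypoxia-reported miRNAs outside the clusters, 5 were detected in both exosome samples, none past 2-fold, with a median log2 change of -0.48. miR-181a (-0.79), miR-26a (-0.52), miR-26b (-0.48) and, narrowly, miR-181c (-0.27) were lower than any of the 4 members, and miR-210 stood at 0.39. miR-128, whose 5′ end overlaps that of miR-27, had log2 changes of -0.39 in cells and -0.33 in the exosome fraction.

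**Figure D3:**
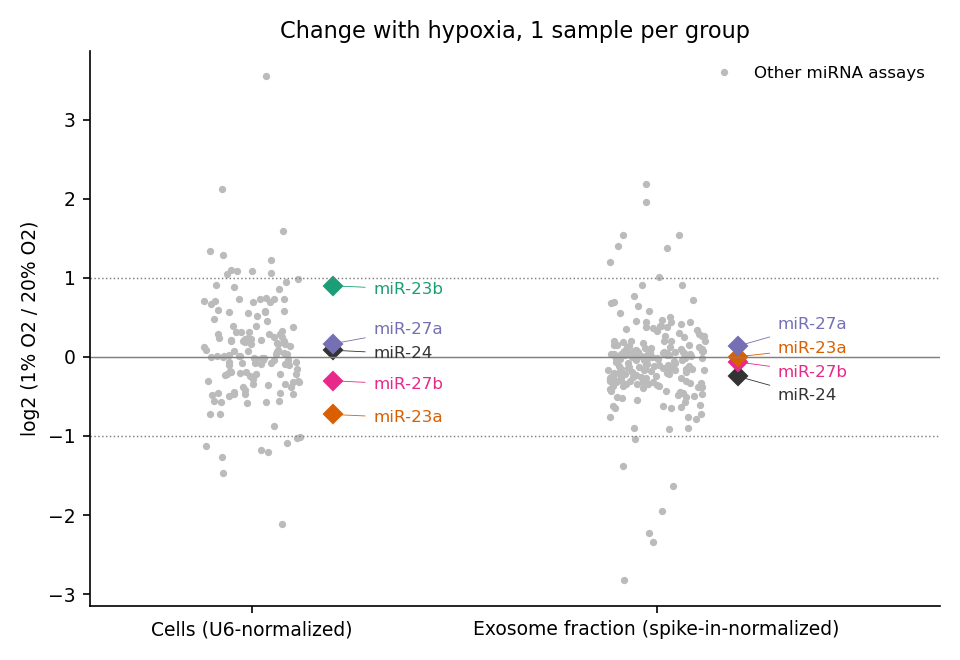
log2 ratio of 1% over 20% O2 for every miRNA assay detected in both samples of a compartment (grey, 147 assays in cells and 203 in the exosome fraction with the members included) and for the cluster members (diamonds); dotted lines mark 2-fold. In cells miR-23b (0.90) and miR-23a (-0.73) stand apart from each other, and in the exosome fraction the 4 detected members lie between -0.25 and 0.14.

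Setting the responses side by side, miR-23a differed most between compartments: its change was -0.73 in cells against 0.001 in the vesicle fraction, and the difference of 0.73 (exosome fraction minus cells) ranked 14th from the highest of the 138 assays detected in all 4 samples. The difference was -0.33 for miR-24, 0.24 for miR-27b and -0.03 for miR-27a. None reached 2-fold, against 15.9% of the 138 assays. The narrower gap between miR-23a and miR-27a in normoxic cells, 0.31 cycles, had no counterpart in the exosome fraction, where it was 0.99 in normoxia and 1.13 in hypoxia, next to the 1.20 of hypoxic cells. Both exosome values of each lay within 0.2 below a whole cycle, as did miR-23a in hypoxic cells (30.97) and miR-27a in normoxic cells (29.94). So did 53.1% to 72.9% of the detected assays in each sample. Whether this pile-up shapes these gaps or the changes of miR-23a was not tested.

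The third comparison set the exosome fraction against the cells. The compartments share no control RNA, so each sample was centred on its median Ct over the 138 assays. Within a pair of samples this moves every assay alike, so an assay's rank does not depend on the centring, while its fold does. By rank, the 4 detected members were all above the upper quartile of these assays in both oxygen conditions. Centring removes only a shift that all assays share. Since only the exosome products were pre-amplified, compartment and pre-amplification cannot be told apart in these ranks or in the ratios below.
miR-24 ranked 19th and 23rd from the highest in normoxia and hypoxia, miR-27a 20th and 20th, miR-27b 25th and 16th, and miR-23a 34th and 15th. The centred log2 ratio of exosome fraction to cells was 1.07 and 0.65 for miR-24, 1.05 and 0.92 for miR-27a, 0.85 and 1.00 for miR-27b, and 0.36 and 1.00 for miR-23a. The median of the 138 assays was -0.44 in normoxia and -0.83 in hypoxia, with upper quartiles of 0.34 and 0.02. None of the 4 was past 4-fold, where 24.6% of assays were in normoxia and 28.3% in hypoxia. Other centrings kept all these ratios above 0 but raised them by 0.66 to 2.97 on the log2 scale, and centred on the median of each sample's own detected assays all 4 were past 4-fold.

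The gaps among miR-24, miR-27a and miR-27b changed by at most 0.35 cycles between compartments, and those of miR-23a to them by more in normoxia. From cells to the exosome fraction, the gap of miR-27b to miR-27a changed by 0.19 cycles in normoxia and -0.08 in hypoxia. That is the smallest absolute change among the 19 pairs of paralogs measured in normoxia and among the 18 in hypoxia, whose medians were 0.91 and 0.86 cycles. The gap of miR-27a to miR-24 changed by 0.02 and -0.27 cycles. For miR-23a, the gap to miR-27a changed by 0.68 in normoxia and -0.08 in hypoxia, and that to miR-24 by 0.71 and -0.35. The raw Ct of the 4 members was 7.31 to 8.02 cycles lower in the exosome fraction, a shift that includes the pre-amplification. In hypoxia 3 of these 4 differences were within 0.1 of a whole cycle, as were 58.7% of those of all 138 assays. The centred hypoxic values of 1.00 for miR-27b and miR-23a come from such differences. In normoxia 2 of the 4, those of miR-27a and miR-24, were that close, beside 34.8% of the 138 assays.

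**Figure D4:**
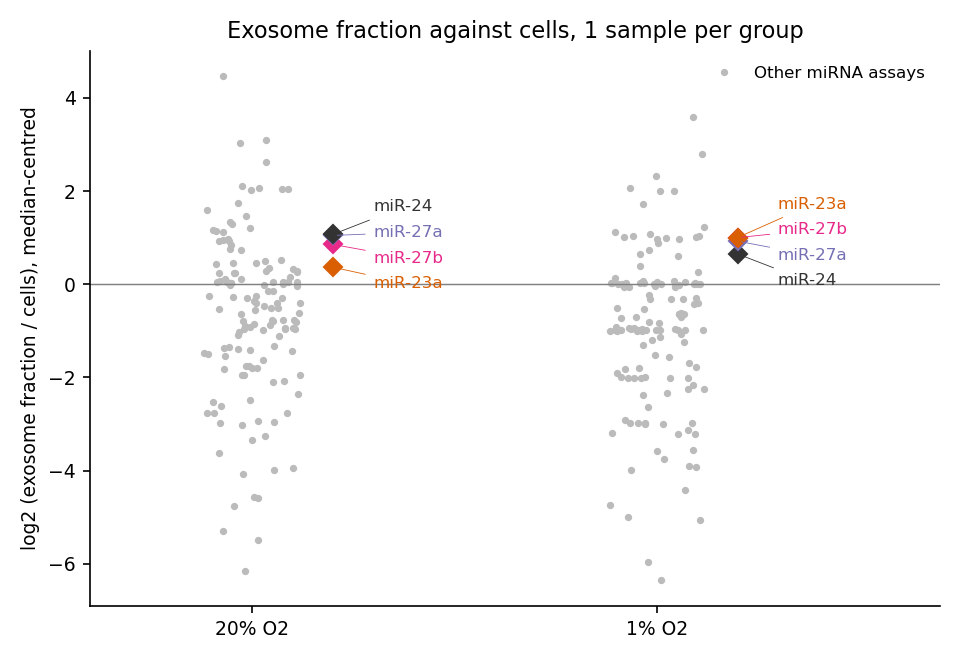
log2 ratio of the exosome fraction over cells after centring each sample on its median Ct, for the 138 assays detected in all 4 samples (grey, with members as diamonds), at 20% and 1% O2. The 4 members lie between 0.36 and 1.07, above the upper quartiles of 0.34 and 0.02; miR-23b is not drawn because it has only a bound.

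miR-23b departed from the other members. With both exosome samples at the ceiling, it has only bounds, and these depend on the centring. Centred on the 138 assays, it was at least 491-fold lower in the exosome fraction than in cells in normoxia and at least 940-fold lower in hypoxia. On the log2 scale these bounds were -8.94 and -9.88. Centred on each sample's own detected assays, they were weaker, at -6.15 and -6.91. Its gap to miR-23a was 2.76 and 1.13 cycles in cells and at least 12.06 and 12.01 in the exosome fraction. The 35 assays whose mean cell Ct was within 1 cycle of miR-23b's (32.56) include miR-23b itself. Of these, 32 were detected in both exosome samples, at a median Ct of 25.81. The other 3, miR-23b among them, were at the ceiling in both.
Absence from both exosome samples despite detection in both cell samples was found for 7 of 147 assays (4.76%). The others were miR-103, let-7a, let-7f, miR-487a, miR-200c and miR-98, named after their values were seen, and miR-103 had a cell Ct of 28.99 to 29.06. Some have close relatives on the card that were detected. Of the 23 pairs of paralogs detected in cells, 5 had 1 miRNA at the ceiling in both exosome samples and the other detected in both. These include the miR-23 pair itself. In the rest the miRNA at the ceiling was let-7a or miR-200c, each in more than 1 pair. let-7b, a partner of let-7a, had an exosome Ct of 21.65 and 21.99. Because the exosome products alone were pre-amplified, compartment and pre-amplification cannot be told apart for miR-23b either.

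Across the 4 samples, the assays whose centred Ct profile was most like a member's were found by the root mean square difference, among the 138 assays. For miR-23a they were miR-221 (0.12 cycles), miR-181c (0.15) and miR-27b (0.19), against a median of 0.82 over all assays. miR-221 also had a higher Ct in hypoxic than in normoxic cells (31.97 and 30.95). For miR-27a they were miR-193b (0.08), miR-152 (0.11) and miR-335 (0.15), and the same 3 were nearest to miR-24, at 0.11, 0.14 and 0.13.
let-7b (0.10), miR-152 (0.12) and miR-21 (0.13) were nearest to miR-27b. Members were also near one another: miR-24 was the 5th nearest to miR-27a and the 4th nearest to miR-27b, and miR-27b the 5th nearest to miR-24. miR-23a was farther off, 14th for miR-27a, 13th for miR-24 and 7th for miR-27b. Counted from miR-23a, miR-24 was the 7th nearest and miR-27a the 9th. The 4 samples share the step between cells and pre-amplified exosome products, and miR-23b, at the ceiling in both exosome samples, has no such profile.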

How the data were processed

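The first table the authors deposited holds the Ct of each of 384 wells as a score that is not normalized; per the labels' protocols it came from TaqMan array cards with 1 well per miRNA. The second holds the authors' deposited ratio of hypoxia over normoxia per well, made with Data Assist version 3.1 according to the submitters. Recomputed log2 ratios differed from it by at most 0.000356 among detected assays.

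Log2 changes were negative differences of Ct, normalized to the mean of 4 U6 wells in cells and to the spike-in in the exosome fraction. Assays at Ct 35 were left out, or gave a bound written as "at least". Thresholds were 2-fold for oxygen and 4-fold for compartments. No test was possible with 1 sample per group; separate cultures are not stated. A Ct carries no count, so no counting interval applies. The calculation was tested on simulated data.

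Members and lists were chosen by name, with earlier results of these data known. Text names the members, the control assays, fixed hypoxia and lineage lists, paralog pairs with the 3 largest and 3 smallest shifts, and the 3 nearest profiles per member. Alternatives were other normalizers, centrings, Ct limits and thresholds. Python 3.11.15, pandas 2.3.3 and numpy 2.4.6 were used.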

Additional observations from a re-analysis of the deposited data

Results flagged for a closer look

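Responses to hypoxia of opposite sign in the cells and in the exosome fraction picked out 2 members, and with 1 sample per group these differences were not tested. For miR-23a the exosome fraction minus cells difference was 0.73 on the log2 scale, from -0.73 in cells and 0.001 in the exosome fraction, and it was 0.64 with each sample's median over the assays detected in all 4 samples as normalizer. With the median over the assays detected in both samples of a compartment, an alternative added after the data were seen, it was 0.90. The exosome value is so close to 0 that its sign turned without a normalizer (-0.05). For miR-24 it was -0.33, from 0.08 in cells and -0.25 in the exosome fraction. The sign in cells turned with RNU44 and RNU48 as normalizers (-0.07), so miR-24 then had the same sign in both compartments.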

How the results depend on the processing

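The 5 cellular log2 changes moved by less than the U6 well-to-well SD of 0.19 under every normalizer tried. The signs of miR-23a, miR-23b and miR-27b held. With the mean of RNU44 and RNU48, miR-27a kept its sign only narrowly, at 0.02, and miR-24 turned to -0.07. These controls did not move alike between normoxic and hypoxic cells. RNU44 went from Ct 23.25 to 22.95 and RNU48 from 22.99 to 22.97, and neither was tried alone. In the exosome fraction the sample median over the assays detected in both exosome samples as normalizer gave 0.20 for miR-23a, 0.34 for miR-27a, 0.14 for miR-27b and -0.046 for miR-24; it shifts all assays alike, and leaving out the normalizer moved them by -0.05, which put miR-23a at -0.05. With such medians in both compartments, the difference of the responses turned sign for miR-27a, from -0.03 to 0.14. At 1.5-fold, 2 members counted as changed in cells instead of 0. The exosome fraction over cells depended on the centring, by its construction, in normoxia and hypoxia. Centred on the median of assays under Ct 32 in all 4 samples, the log2 values were 1.11 and 1.99 for miR-23a, 1.79 and 1.92 for miR-27a, 1.60 and 1.99 for miR-27b, 1.82 and 1.64 for miR-24 and, as bounds, -8.19 and -8.89 for miR-23b. Centred on the mean they were 1.02 and 1.93 for miR-23a, 1.70 and 1.86 for miR-27a, 1.51 and 1.93 for miR-27b, 1.73 and 1.58 for miR-24 and, as bounds, -8.28 and -8.94 for miR-23b. Centred on the median of each sample's own detected assays, which are more numerous in the exosome fraction, they were 3.16 and 3.97 for miR-23a, 3.84 and 3.90 for miR-27a, 3.65 and 3.97 for miR-27b, 3.86 and 3.62 for miR-24 and, as bounds, -6.15 and -6.91 for miR-23b. No direction turned under these centrings. Over the whole card, the counts at 2-fold in cells were 11 higher and 9 lower, or 1 and 4 among assays under Ct 32 in both, 6 and 10 with RNU44 and RNU48, and 28 and 13 at 1.5-fold. In the exosome fraction they were 8 and 7, then 2 and 0 under Ct 32, and 15 and 20 at 1.5-fold. With only assays under Ct 32 in both samples, the share of assays with a lower change moved most for miR-27a in cells, from 59.2% to 64.9%. No paired analysis was possible because each group holds 1 sample. Differences well below 1 cycle are at the limit of single wells, and that of miR-23b above Ct 32 more so.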

Other observations

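The deposited Ct values were not spread evenly between whole cycles. A Ct within 0.2 below a whole number, a range chosen after the values were seen, was recorded for 53.1% and 72.9% of the detected assays in normoxic and hypoxic cells, and for 59.3% and 65.3% in the matching exosome samples. Of the 18 values of the cluster members under the ceiling, 12 lay there, among them both exosome values of miR-23a, miR-27a and miR-27b.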
